A study of Homo sapiens with 4 samples.

Results

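The genes described here are 36 members of the antigen presentation system, chosen by symbol from 21865 genes: 18 of the class I pathway, 15 of the class II pathway and the 3 subunits of the RFX complex, which serves both. RNA was sequenced from cultured lines of human acute myeloid leukemia, with 1 library for each of THP-1, MonoMac-1, KG1a and HL60. THP-1 and MonoMac-1 derive from monocytic leukemias with the MLL-AF9 fusion, KG1a is an immature line and HL60 a myeloblastic to promyelocytic line. These attributes are general knowledge of the lines, whereas the labels give the line names only. All lines were grown in the same medium with serum and no treatment is stated, but the THP-1 sample title ends in an unexplained "tr", so a treatment or modification of that culture is not known. Levels are RPKM, reads per gene length and library size, so genes of unlike length can be set side by side. A gene with at least 1 RPKM in at least 1 line is called measured, which held for 34 members and for 12976 genes in all. HLA-DOB and HLA-DQA2 did not reach 1 RPKM in any line.

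Class I molecules present peptides made in the cytosol. The proteasome cuts them, the TAP transporter carries them into the endoplasmic reticulum, and a heavy chain paired with beta-2-microglobulin takes them to the surface of nearly all nucleated cells. Class II molecules present peptides from the endosomal route and are normally found on dendritic cells, B cells and monocytes. Their alpha and beta chains assemble around the invariant chain CD74, which HLA-DM later helps to exchange for peptide. The transactivator CIITA switches class II genes on, and NLRC5 is its class I relative. Neither binds DNA itself, and both act through RFX, CREB and NF-Y proteins bound to conserved X and Y boxes. HLA genes are highly polymorphic and have close copies, so reads of an allele unlike the reference may be lost or assigned to a neighbour. Values of HLA-B, HLA-C, HLA-G, HLA-DRB1, HLA-DRB5, HLA-DQA1, HLA-DQA2 and HLA-DQB1 are therefore uncertain, and HLA-DRA, which varies little between people, is the safer measure of the DR genes.

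Promoter stretches are shown because X and Y boxes are the known landing sites of the CIITA and NLRC5 route, and interferon elements those of the interferon route. Promoter windows (RefSeq, GRCh38.p14, from 250 bases before to 50 bases after the start of transcription) were matched for 31 of the 36 members. An X box form, spelled CNAG, any 3 bases, C, any 3 bases and TGA on either strand (N is any base), was written after reading these promoters and so describes them without testing them. It was found in 7 of 13 class II genes with a window, in 0 of 15 class I genes and in 3.23% of all 35116 windows. With a Y box core, ATTGG on either strand, 10 to 30 bases downstream, 6 class II genes and 0.154% of all windows remained. HLA-DMB held the X box form without a Y box core at that spacing, and the other 6 class II genes lacked the X box form. ATTGG alone stood in 12 of 13 class II genes, 10 of 15 class I genes and 34.6% of all windows. The 6 windows are given 5′ to 3′ on the strand of the gene, with the X box form and the Y box core in capitals.
HLA-DRB1: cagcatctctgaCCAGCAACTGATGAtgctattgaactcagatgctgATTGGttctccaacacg
HLA-DRB5: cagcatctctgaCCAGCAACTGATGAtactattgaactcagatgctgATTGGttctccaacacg
HLA-DQB1: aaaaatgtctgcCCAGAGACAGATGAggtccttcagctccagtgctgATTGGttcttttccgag
HLA-DMA: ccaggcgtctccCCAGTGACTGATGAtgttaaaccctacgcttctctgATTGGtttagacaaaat
HLA-DOB: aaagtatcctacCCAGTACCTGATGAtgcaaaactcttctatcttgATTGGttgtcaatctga
CD74: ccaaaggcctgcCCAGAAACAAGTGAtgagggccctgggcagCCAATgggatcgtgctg
These windows lie at chr6:32589878-32589941, chr6:32530361-32530424, chr6:32666729-32666792, chr6:32953160-32953224, chr6:32817084-32817146 and chr5:150412947-150413005, all on the minus strand. HLA-DRB1 and HLA-DRB5 differed at 1 of 64 bases in this stretch. In CD74 the core is on the other strand and reads CCAAT.

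An interferon element form, spelled GAAA, any 2 bases and GAAA on either strand, was found in 9 of 15 class I genes, in 0 of 13 class II genes and in 3.57% of all windows. The 9 genes were HLA-F, B2M, TAP1, TAP2, TAPBP, PSMB8, PSMB10, ERAP1 and ERAP2, and RFX5 held it as well. A total of 5 examples are printed with the element in capitals. Where copies overlap, the capitals run on.
B2M: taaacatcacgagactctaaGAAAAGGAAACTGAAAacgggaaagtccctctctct
TAP1: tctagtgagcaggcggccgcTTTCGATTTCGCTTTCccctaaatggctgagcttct
TAPBP: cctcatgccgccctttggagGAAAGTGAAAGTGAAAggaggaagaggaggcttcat
PSMB8: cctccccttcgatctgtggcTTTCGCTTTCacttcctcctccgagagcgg
PSMB10: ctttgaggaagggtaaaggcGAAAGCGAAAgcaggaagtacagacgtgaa
They lie at chr15:44711353-44711408 on the plus strand and at chr6:32853803-32853858, chr6:33314063-33314118, chr6:32844022-32844071 and chr16:67936842-67936891 on the minus strand. A match is a run of letters and was not tested as a binding site, and a gene without a match only lacks these letters in this window. All other coordinates below are hg19, as the deposited tables list them.

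The libraries held 6.04 gigabases on genes for THP-1, 13.6 for MonoMac-1, 10.2 for KG1a and 8.72 for HL60. Intervals printed beside RPKM values are exact 95% Poisson intervals of 200-base fragment equivalents and cover counting error only. With 1 library per line they do not measure the spread between cultures. Of 9 monocyte markers, THP-1 had 7, MonoMac-1 7, KG1a 1 and HL60 3 at 1 RPKM or more, with summed levels of 786, 5125.5, 2.99 and 20.9 RPKM. LYZ (4837 and 510 RPKM) made up most of the MonoMac-1 and THP-1 sums and most of the gap between them. Among the 8 measured markers, 5 were highest in MonoMac-1, 2 (CSF1R and CCR2) in THP-1 and 1 in HL60. At least 4-fold higher in both monocytic lines were 6 of the 8 (CD14, LYZ, CD68, CCR2, VCAN and MPEG1), beside 4.35% of all measured genes. FCGR3A stayed under 1 RPKM in all 4 lines and was listed at 0 in KG1a. The 7 B cell markers summed to 2.95, 4.80, 0.785 and 12.6 RPKM in THP-1, MonoMac-1, KG1a and HL60, with MS4A1 at or near 0 throughout. The 8 dendritic markers summed to 33.9, 225, 42.2 and 2.79 RPKM, mostly from FLT3 in THP-1 and MonoMac-1, CLEC9A in KG1a and both in HL60. The 7 granulocyte markers summed to 6493, 6913, 23.9 and 5596 RPKM in THP-1, MonoMac-1, KG1a and HL60, with CEACAM8 at or near 0 throughout. Of the 5 measured, 3 (ELANE, AZU1 and CTSG) were at least 4-fold higher in both monocytic lines (4.35% of all measured genes). MPO, with the highest mean of the list, was instead highest in HL60, at 4.78, 95.2, 3.10 and 4610 RPKM in the same lines. The 6 stem and progenitor markers summed to 13.3, 9.33, 549 and 46.6 RPKM, with MECOM at or near 0 throughout. Of the 4 measured, CD34 and GATA2 were at least 4-fold lower in both monocytic lines (2.21% of all measured genes). The 7 T and NK cell markers summed to 16.1, 160, 169 and 21.6 RPKM, mostly from NKG7. Of the 4 measured, CD3D, CD3E and CD7 were at least 4-fold lower in both monocytic lines (2.21% of all measured genes). Both the monocyte marker sum and the median class II level ran from MonoMac-1 through THP-1 and HL60 down to KG1a. Granulocyte marker sums ran in the same order, though with HL60 close to the monocytic lines. The stem cell sum was highest in KG1a. What part these play in the class II levels below was not tested. In bulk RNA, fewer cells that express a gene and less RNA per cell cannot be told apart. Genes at 20 RPKM or more in KG1a and at most 0.5 in each monocytic line were taken. Only those with HL60 under 10% of KG1a were kept. These 59 genes lay in HL60 at a median of 2.67% of their KG1a level. The limit of 10% holds this median low in advance, so it does not describe all genes abundant in KG1a. Taking that share off HL60 lowered its HLA-DOB, HLA-F and TAP1 values by 51.6%, 23.1% and 10.0% and every other member by less.

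**Figure D1:**
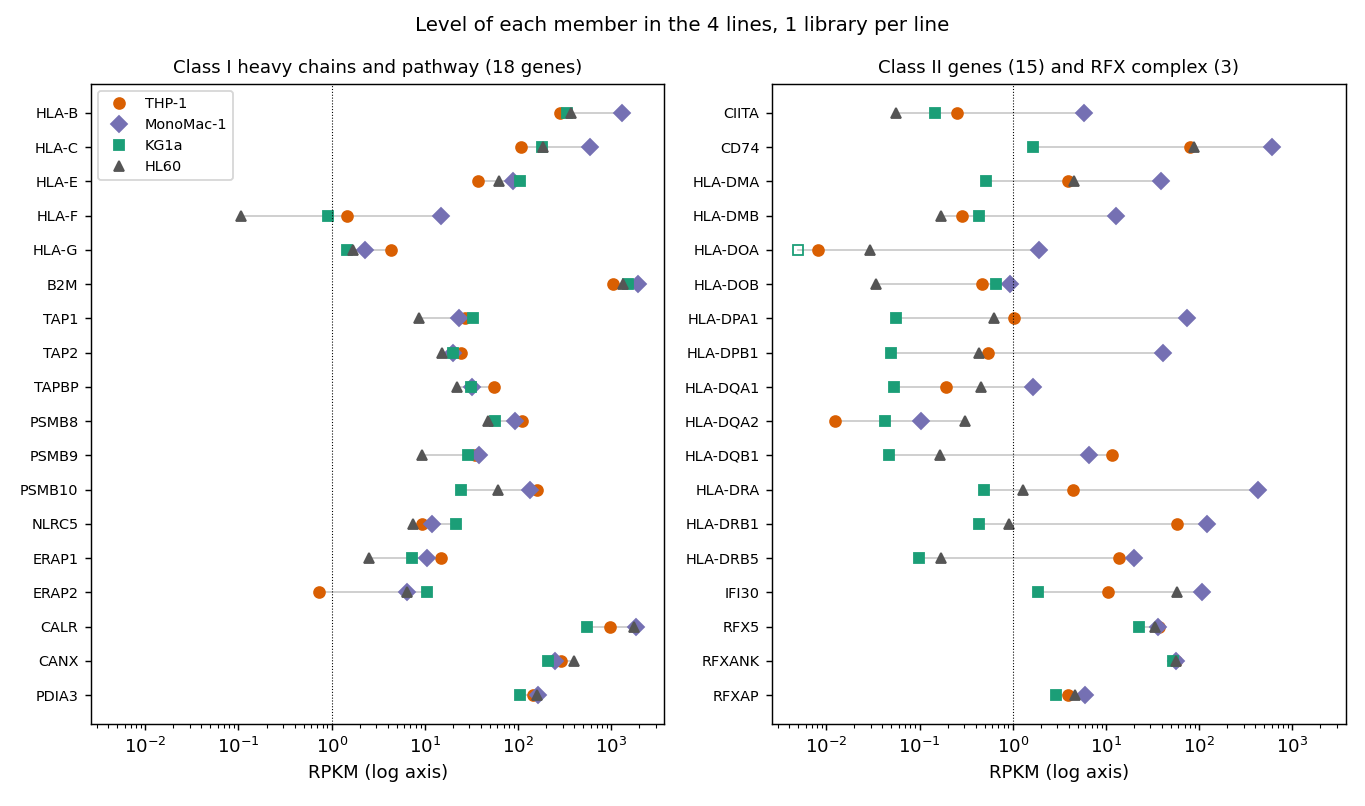
RPKM on a log axis for each member in THP-1, MonoMac-1, KG1a and HL60, 1 library each, with a grey line from the lowest to the highest line and a dotted line at 1 RPKM. Class I genes cluster on the right, class II genes spread over the whole axis with MonoMac-1 highest for 13 of 15, and the open square marks HLA-DOA, listed at 0 in KG1a.

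The classical class I heavy chains HLA-B and HLA-C and their light chain were abundant in all 4 lines. B2M, which encodes beta-2-microglobulin (chromosome 15, 45003685 to 45010357), was found at 1032 RPKM in THP-1, 1950 in MonoMac-1, 1505 in KG1a and 1347 in HL60. These levels placed it above 99.7% to 99.9% of measured genes in each line. HLA-B, a classical heavy chain (chromosome 6, 31321649 to 31324989), was found at 279 RPKM in THP-1, 1301 in MonoMac-1, 336 in KG1a and 369 in HL60. HLA-C, the other classical heavy chain followed here, stood at 108, 596, 182 and 185 RPKM in the same lines. MonoMac-1 was highest and THP-1 lowest for both heavy chains, while KG1a and HL60 lay close together. The HLA-B level was 0.271, 0.667, 0.223 and 0.274 times that of B2M in THP-1, MonoMac-1, KG1a and HL60.

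Of the nonclassical heavy chains, HLA-E was broadly present and HLA-F was not. HLA-E, a ligand of the NK cell receptors built on CD94, stood at 37.5 RPKM in THP-1, 89.0 in MonoMac-1, 105 in KG1a and 61.8 in HL60. HLA-F stood at 1.47 RPKM in THP-1, 15.04 in MonoMac-1, 0.915 in KG1a and 0.106 in HL60, where the value rests on 7.5 fragment equivalents. MonoMac-1 was 10.2 times above the next line, which made HLA-F the only class I member at least 4-fold higher there than in each other line (1 of 18; 2.03% of all measured genes). HLA-G, best known from the placenta, was low in every line, at 4.32, 2.29, 1.47 and 1.71 RPKM. NLRC5, the class I transactivator, stood at 9.22 RPKM in THP-1, 11.9 in MonoMac-1, 21.3 in KG1a and 7.52 in HL60. KG1a was thus highest for NLRC5 and HLA-E, but not for HLA-B, HLA-C or B2M.

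HL60 was the lowest line for the TAP transporter genes, TAPBP, PSMB8 and PSMB9, but not for PSMB10 or ERAP2. TAP1, one chain of the peptide transporter (chromosome 6, 32812986 to 32821748), was found at 27.0 RPKM in THP-1, 23.2 in MonoMac-1, 32.7 in KG1a and 8.73 in HL60 (interval 8.22 to 9.27). PSMB9, an inducible subunit of the immunoproteasome (chromosome 6, 32821938 to 32827628), was found at 34.8, 37.9, 28.8 and 9.33 RPKM. These genes lie head to head, with 190 bases between them, and the next lowest line exceeded HL60 by 2.65 times for TAP1 and 3.08 times for PSMB9. After removal of the KG1a share HL60 was left with 7.86 RPKM of TAP1 and 8.56 of PSMB9. TAP2, the partner chain of TAP1, varied less, at 24.6 RPKM in THP-1, 19.9 in MonoMac-1, 19.9 in KG1a and 15.1 in HL60. The TAP1 level was 1.10, 1.16 and 1.64 times that of TAP2 in THP-1, MonoMac-1 and KG1a, and 0.579 times in HL60. TAPBP, the tapasin that bridges TAP and the heavy chain, was also lowest in HL60, at 54.5, 31.6, 31.0 and 21.8 RPKM. In all, HL60 was the lowest line for 8 of 18 class I members (26.2% of all measured genes), namely HLA-F, TAP1, TAP2, TAPBP, PSMB8, PSMB9, NLRC5 and ERAP1.

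The inducible proteasome subunits, set against the constitutive subunits they replace, were highest in THP-1. PSMB8 stood at 110 RPKM in THP-1, 93.1 in MonoMac-1, 56.8 in KG1a and 48.1 in HL60, which was 1.97, 1.06, 1.07 and 0.619 times PSMB5. PSMB9 came to 0.713, 0.587, 0.623 and 0.122 times PSMB6 in the same order of lines. PSMB10 stood at 158, 135, 24.3 and 60.5 RPKM, which was 1.61, 0.865, 0.259 and 0.238 times PSMB7. Thus THP-1 led in all 3 ratios and HL60 had the lowest, while KG1a was near MonoMac-1 for PSMB8 and PSMB9 but near HL60 for PSMB10. The peptide-trimming enzymes of the endoplasmic reticulum did not move together. ERAP1 stood at 14.8 RPKM in THP-1, 10.6 in MonoMac-1, 7.35 in KG1a and 2.51 in HL60. ERAP2 stood at 0.737, 6.50, 10.6 and 6.35 RPKM, and it was the 1 class I member for which THP-1 was at least 4-fold below each other line (1.63% of all measured genes). The chaperones were high throughout: CALR (calreticulin) at 545 to 1838 RPKM, CANX (calnexin) at 211 to 399 and PDIA3 (ERp57) at 105 to 161, each lowest in KG1a.

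**Figure D2:**
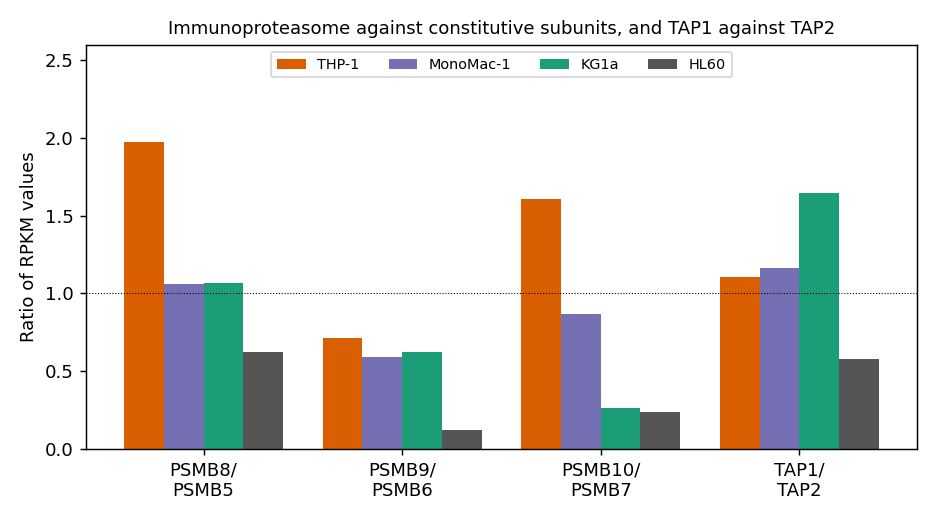
Ratio of RPKM values for each inducible proteasome subunit over the constitutive subunit it replaces, and for TAP1 over TAP2, with 1 bar per line and no error bars because each line has 1 library. HL60 has the shortest bar in every set, down to 0.122 for PSMB9 over PSMB6, and THP-1 the tallest in the 3 proteasome sets.

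Among the class II regulators, CIITA differed widely between lines and the RFX subunits hardly did. CIITA (chromosome 16, 10971055 to 11018840) was found at 0.250 RPKM in THP-1 (0.179 to 0.340), 5.85 in MonoMac-1 (5.61 to 6.11), 0.146 in KG1a (0.105 to 0.198) and 0.0566 in HL60 (0.0301 to 0.0968). MonoMac-1 was 23.4 times above THP-1, the next line, and the counting intervals of THP-1 and KG1a overlap. RFX5, the DNA-binding subunit, stood at 36.9 RPKM in THP-1, 36.3 in MonoMac-1, 22.7 in KG1a and 33.4 in HL60. RFXANK stood at 56.6, 56.9, 52.5 and 56.1 RPKM, a range of 1.08-fold, and RFXAP at 3.90, 5.95, 2.88 and 4.61. All 3 subunits of the complex were therefore present in every line, and KG1a was lowest for each (29.7% of all measured genes).

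MonoMac-1 was the only line with both chains of HLA-DR, HLA-DP and HLA-DQ at 1 RPKM or more. HLA-DRA, the alpha chain of HLA-DR (chromosome 6, 32407619 to 32412826), was found at 4.39 RPKM in THP-1 (3.79 to 5.05), 430 in MonoMac-1 (426 to 434), 0.494 in KG1a (0.351 to 0.676) and 1.28 in HL60 (1.02 to 1.59). The MonoMac-1 level exceeded that of THP-1 by 98.0 times and was above 99.2% of measured genes of that library. HLA-DPA1, the alpha chain of HLA-DP, stood at 1.03 RPKM in THP-1, 74.4 in MonoMac-1, 0.0559 in KG1a and 0.631 in HL60. HLA-DPB1, its beta chain, stood at 0.549, 41.2, 0.0491 and 0.439 RPKM in the same lines. THP-1 was close to HL60 for both DP chains, with overlapping counting intervals, and the KG1a values rest on 4.0 and 4.5 fragment equivalents.

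The beta chains of DR and DQ broke this order in THP-1. HLA-DRB1 stood at 57.4 RPKM in THP-1 (55.1 to 59.7), 120 in MonoMac-1 (118 to 122), 0.435 in KG1a (0.296 to 0.618) and 0.901 in HL60 (0.673 to 1.18). HLA-DRB5 stood at 13.7, 19.9, 0.0982 and 0.172 RPKM, and HLA-DQB1 at 11.7 (10.7 to 12.8), 6.65 (6.15 to 7.19), 0.0468 and 0.166. For these 3 genes THP-1 came within 2.1-fold of MonoMac-1 or above it, and neither monocytic line overlapped KG1a or HL60. HLA-DRB1 was 13.1 times the level of HLA-DRA in THP-1, against 0.280 times in MonoMac-1, 0.881 in KG1a and 0.704 in HL60. HLA-DQB1 was likewise 61.6 times HLA-DQA1 in THP-1 and 4.03 times in MonoMac-1. HLA-DQA1 itself stood at only 0.190 RPKM in THP-1, 1.65 in MonoMac-1, 0.0531 in KG1a and 0.461 in HL60. No such imbalance was seen for DP, where HLA-DPB1 was 0.535 and 0.554 times HLA-DPA1 in THP-1 and MonoMac-1. HLA-DQA2, a gene of little known expression, ranged from 0.0125 to 0.308 RPKM.

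**Figure D3:**
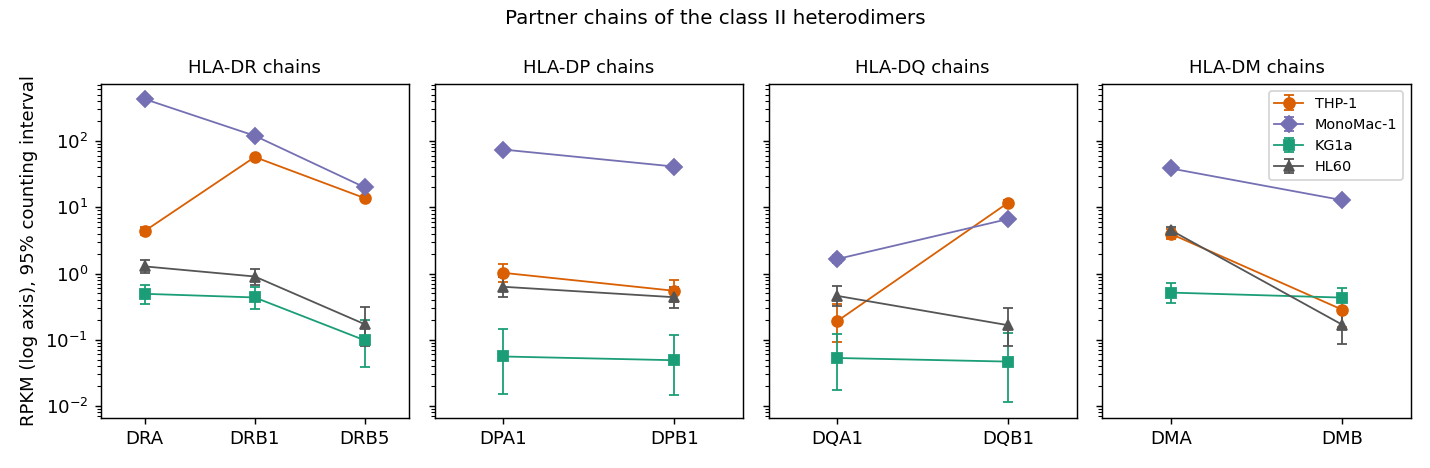
RPKM on a log axis for partner chains of HLA-DR, HLA-DP, HLA-DQ and HLA-DM in each line, with 95% counting intervals and lines that join the chains of 1 library. MonoMac-1 is above the other lines for every chain except DQB1, and THP-1 climbs from 4.39 RPKM of DRA to 57.4 of DRB1 and from 0.190 of DQA1 to 11.7 of DQB1.

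The invariant chain did not follow the heterodimers in HL60. CD74 stood at 79.8 RPKM in THP-1 (77.4 to 82.2), 608 in MonoMac-1 (603 to 612), 1.67 in KG1a (1.41 to 1.95) and 88.8 in HL60 (86.6 to 90.9). HL60, with the lowest CIITA, thus held slightly more CD74 than THP-1. CD74 was 18.2 times HLA-DRA in THP-1, 1.41 times in MonoMac-1, 3.37 times in KG1a and 69.3 times in HL60. IFI30, the thiol reductase that unfolds antigens in lysosomes, had the same order of lines, at 10.6 RPKM in THP-1, 107 in MonoMac-1, 1.85 in KG1a and 57.9 in HL60. HLA-DMA, the alpha chain of the peptide exchange factor HLA-DM, did so too, at 3.96, 38.6, 0.515 and 4.50 RPKM. Its counting intervals in THP-1 (3.36 to 4.64) and HL60 (3.96 to 5.10) overlap, so the order of these lines is uncertain. HLA-DMB, the beta chain of HLA-DM, did not: it stood at 0.285 RPKM in THP-1, 12.8 in MonoMac-1, 0.433 in KG1a and 0.170 in HL60. The HLA-DMB interval of THP-1 overlaps those of KG1a and HL60. The HLA-DMB level was 0.0720 times that of HLA-DMA in THP-1, 0.333 in MonoMac-1, 0.841 in KG1a and 0.0376 in HL60. HLA-DO, which restrains HLA-DM and is typical of B cells, was low. HLA-DOA stood at 0.00825 RPKM in THP-1, 1.92 in MonoMac-1, 0 (as listed) in KG1a and 0.0291 in HL60, and HLA-DOB at 0.471, 0.931, 0.657 and 0.0340 RPKM in THP-1, MonoMac-1, KG1a and HL60.

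Setting THP-1 and MonoMac-1 against KG1a and HL60 asked how antigen presentation separates the MLL-AF9 lines. The fusion, the monocytic lineage and single lines cannot be told apart in it. Of 15 class II members, 3 had a lower value in THP-1 and MonoMac-1 at least 4 times the higher value in KG1a and HL60 (4.35% of all measured genes), and 0 were lower by that rule (2.21%). They were HLA-DRB1, HLA-DRB5 and HLA-DQB1, the first 2 near-identical copies. Of the class II members 2 did not pass the minimum of 1 RPKM, and 5 (CIITA, HLA-DMB, HLA-DOA, HLA-DPB1 and HLA-DQA1) passed it through MonoMac-1 only. Of 18 class I members and 3 RFX subunits 0 met the rule in either direction. By any margin 7 of 15 class II and 8 of 18 class I members had both MLL-AF9 lines on top (22.1% of all measured genes) and 0 of either were lower (19.6%). The class II count was 10 without HL60, 11 without THP-1, 4 without KG1a and 3 without MonoMac-1, and the class I count 1, 1, 2 and 0. The share of all measured genes is set by the same rule and moved too. With no line left out, 564 of 12976 genes were higher in the MLL-AF9 pair. This became 1334 of 12806 without HL60 and 764 of 12573 without THP-1. Without KG1a it was 1030 of 12384, and without MonoMac-1 831 of 12665.

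The median difference between the pairs, MLL-AF9 lines minus the others on the log2(RPKM + 1) scale, was 2.28 over all 15 class II members and 0.50 over the 18 class I members, beside 0.02 over all measured genes. Over the 13 measured class II members it was 2.72, and 4.14 with a pseudocount of 0.1. In limma with the line as the unit, 0 of 12976 genes passed at an adjusted p of 0.05 (0%), and 5.91% were higher and 2.64% lower at an unadjusted p under 0.05. HLA-DRB1 averaged 6.39 on that scale in the MLL-AF9 lines and 0.72 in the others, a difference of 5.67 ± 0.51 (SE; adjusted p = 0.0932). For HLA-DRB5 the difference was 3.95 ± 0.46 (adjusted p = 0.169), and for HLA-DQB1 3.16 ± 0.51 (adjusted p = 0.257), each higher in 2 of 2 lines. HLA-DRA had a difference of 4.71 and an SE of 2.04 (adjusted p = 0.628), with THP-1 and MonoMac-1 far apart. Besides these 3 beta chains, PSMB8 (0.94 ± 0.34, adjusted p = 0.558) and PSMB10 (1.90 ± 0.52, adjusted p = 0.440) had unadjusted p-values under 0.05. Over the alternative settings the adjusted p of HLA-DRB1 ranged over 0.0484 to 0.804, and it passed only when genes needed 5 RPKM in some line.

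THP-1 was at least 4-fold below MonoMac-1 for 11 of 15 class II members, 10 of them measured, and 4 of 18 class I members (5.9% of all measured genes), and at least 4-fold above it for 0 of either (6.7%). The class I members were HLA-B, HLA-C, HLA-F and ERAP2, and the class II count includes HLA-DQA2, whose THP-1 value rests on 0.5 fragment equivalents. CIITA, HLA-DMB, HLA-DOA, HLA-DPB1 and HLA-DQA1 were measured through MonoMac-1 only, which favours the class II count. The median of THP-1 minus MonoMac-1 was -2.45 for class II and -0.15 for class I on the log2(RPKM + 1) scale, beside -0.04 over all measured genes. KG1a was at least 4-fold below HL60 for 8 of 15 class II members, 7 of them measured, and 0 of 18 class I members (10.1% of all measured genes). The 8 were CD74 (53.3-fold higher in HL60), IFI30 (31.2-fold), HLA-DPA1, HLA-DPB1, HLA-DMA, HLA-DQA1, HLA-DQA2 and HLA-DOA, the last listed at 0 in KG1a against 5 fragment equivalents in HL60. In the other direction HLA-F and HLA-DOB were at least 4-fold above HL60 (12.9%), on HL60 values of 7.5 and 2.3 fragment equivalents. These differences are between 1 library each and have no test.

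MonoMac-1 was the highest line for 13 of 15 class II members, 12 of them among the 13 measured (24.9% of all measured genes). KG1a was the lowest for 11, all measured (29.7%). CIITA, HLA-DMB, HLA-DOA, HLA-DPB1 and HLA-DQA1 reached 1 RPKM in MonoMac-1 only, so for them the filter fixed MonoMac-1 as highest. It also favours them under a 4-fold rule for MonoMac-1. MonoMac-1 was at least 4-fold higher than each other line for 8 of 15 class II members (2.03% of all measured genes): CIITA, CD74, HLA-DMA, HLA-DMB, HLA-DOA, HLA-DPA1, HLA-DPB1 and HLA-DRA. KG1a was at least 4-fold lower than each other line for 6 (7.38%), namely CD74, IFI30, HLA-DMA, HLA-DPA1, HLA-DPB1 and HLA-DOA. HLA-DOA meets the rule only as listed: it is at 0 in KG1a and rests on 1 fragment equivalent in THP-1, under the floor of 3, so no difference between those lines can be called. With 1 added to each RPKM value before the ratio, a rule that discounts values near 0, the counts were 7 and 2. The shares of all measured genes were not computed under that rule, and 2.03% and 7.38% do not apply to it. The difference between the highest and lowest line had a median of 4.25 over class II, 1.61 over class I and 0.68 over the RFX complex on the log2(RPKM + 1) scale, beside 1.18 over all measured genes. All 15 class II members spanned at least 4-fold in RPKM, beside 58.9% of all 21865 listed genes, many of them near 0. Among measured genes the span was reached by 13 of 13 class II members, 7 of 18 class I members and 0 of 3 RFX subunits (36.6% of all measured genes). TAP2, PSMB8, TAP1 and PSMB9 lie between HLA-DOB and HLA-DMB on chromosome 6, and spanned 0.67, 1.18, 1.79 and 1.91 on the same log2(RPKM + 1) scale. HLA-DOB, under 1 RPKM in every line, spanned 0.90, and HLA-DMB 3.56.

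**Figure D4:**
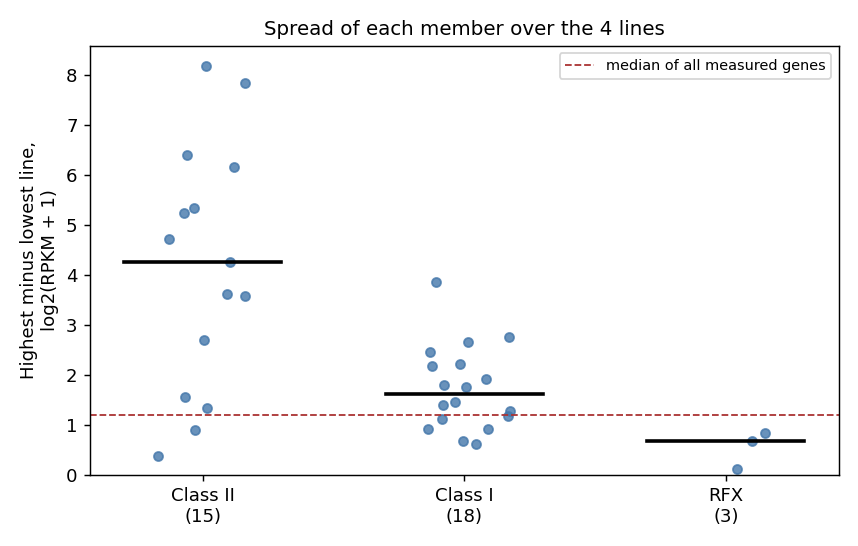
Highest minus lowest line for each member on the log2(RPKM + 1) scale, with points for genes, black bars for group medians (4.25, 1.61 and 0.68) and a dashed line for the median of all measured genes (1.18). Points are jittered sideways. Class II members reach 8.17 for HLA-DRA, and the class I member with the widest span is HLA-F at 3.86.

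Other genes of the pathways were taken from lists by role. Of 11 measured class II processing and turnover genes, 3 passed the 4-fold rule upwards in the MLL-AF9 pair, 0 downwards and 8 neither way (median difference 2.03). For this and each list below, the shares of all measured genes were 4.35% upwards and 2.21% downwards. CST3, the cathepsin inhibitor cystatin C, reached 322 RPKM in THP-1, 190 in MonoMac-1, 1.13 in KG1a and 12.5 in HL60. CTSH, a cathepsin, stood at 30.2 and 43.6 against 0.322 and 2.95 RPKM, and CTSL2, the cathepsin also called V, at 10.3 and 11.8 against 0.0110 and 0.0679. CTSD, an aspartic protease of lysosomes with the highest mean of the list, stood at 93.1 and 275 against 153 and 105 RPKM. LGMN, an endosomal protease, did not reach 1 RPKM. Of 9 measured CIITA regulators and enhanceosome partners, 1 was higher by the rule: IRF8, a transcription factor of monocytes and dendritic cells, at 231 and 163 against 0.0216 and 0.599 RPKM. For CST3, CTSH, CTSL2 and IRF8 the adjusted p was 0.257, 0.257, 0.172 and 0.0724 in limma, so 0 passed.

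Interferon gamma signalling genes were highest in KG1a for 7 of 10 measured (31.0% of all measured genes were highest there). GBP1, an interferon-induced GTPase, stood at 0.00943 RPKM in THP-1, 0.0372 in MonoMac-1, 22.3 in KG1a and 0.560 in HL60. It was the 1 gene of the list at least 4-fold lower in both MLL-AF9 lines, with 0 higher and 9 neither. Of the class I members, 4 of 18 (NLRC5, TAP1, HLA-E and ERAP2) were highest in KG1a, beside 31.0% of all measured genes. Whether these shares differ was not tested, nor was any link between the interferon genes and class I levels. IFNG itself stood at 0.0271 RPKM in KG1a and was listed at 0 in the other lines.

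The constitutive proteasome and activator list held 0 of 10 genes beyond 4-fold, with a median difference of 0.02 and the highest mean for PSMA7, at 170 to 224 RPKM. Of 6 measured class I-like molecules and loading factors, 1 was higher and 5 neither. It was CD1D, which presents lipids to NKT cells, with 2.45 and 3.35 RPKM in the MLL-AF9 lines THP-1 and MonoMac-1, a listing at 0 in KG1a and 0.140 in HL60. HSPA5, the chaperone BiP and the highest mean of that list, stood at 174, 239, 80.1 and 219 RPKM in THP-1, MonoMac-1, KG1a and HL60. Costimulatory genes were sparse: 5 of 8 were measured, CD80 was under 0.1 RPKM in every line, and CD58, an adhesion ligand, had the highest mean level at 5.69, 8.65, 7.83 and 5.01 RPKM in THP-1, MonoMac-1, KG1a and HL60. CD86, which like CD80 binds CD28 on T cells, stood at 0.312 RPKM in THP-1, 5.22 in MonoMac-1, 0.0287 in KG1a and 1.03 in HL60. CD40, the receptor for T cell help, was the 1 costimulatory gene that met the rule, with 4.03 RPKM in THP-1, 0.110 in MonoMac-1, a listing at 0 in KG1a and 0.0273 in HL60. It was measured through THP-1 only, and the call rests on MonoMac-1 and HL60 values far under 1 RPKM.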

How the data were processed

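RNA of 4 cell lines was measured, with 1 library per line. Per the labels' protocols, mRNA came from a TRIzol extraction and went into standard Illumina libraries. CASAVA 1.8.2 and the build hg19 stand in the submitters' processing notes. The sources used here do not give the aligner, annotation, strand handling or filters, so antisense and overlapping genes may share reads. The authors deposited RPKM per gene and a whole-number coverage signal, read from its values as bases sequenced on the gene and not used as counts. Tables were joined by position and symbol (21893 entries), and for 28 repeated symbols the entry with the highest mean was kept. Values were analysed as log2(RPKM + 1), which understates the change of low genes. limma 3.58.1 (R 4.3.3, trend, two-sided, Benjamini-Hochberg) used the line as the unit, with 2 residual degrees of freedom, so p-values measure the spread between lines. It was tested on simulated data with a smaller spread than most members showed between these lines, so that test does not measure power here. Alternatives covered the pseudocount, filter, scaling, fold rule, HL60 share and each line left out. All members are named; of other pathway genes, those past 4-fold and the most abundant of each list, with a few others chosen after their values were seen. One gene that this rule names is not reported here. Members and lists were chosen with earlier results of these data known.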

Additional observations from a re-analysis of the deposited data

How the results depend on the processing

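No paired analysis was possible because each line has 1 library and the labels carry no replicate numbers. Of 332 member differences under an alternative, 315 kept their direction, 17 turned, and 1 was called, HLA-DRB1 with a minimum of 5 RPKM (adjusted p = 0.0484), where 11 genes in all passed limma. B2M (-0.01) turned to 0.020 under median-of-ratios scaling, 0.12 under quantile normalization and 0.017 with the KG1a share taken off HL60, and the other turns came with a line left out. Over the lines left out, the difference ranged over -0.33 to 1.88 for HLA-B, -0.76 to 1.70 for HLA-C, -1.08 to 0.14 for HLA-E, -0.46 to 0.45 for B2M, -0.37 to 1.42 for TAP1, -0.96 to 0.43 for NLRC5, -0.39 to 1.29 for CALR, -0.56 to 0.36 for CANX, -0.063 to 0.52 for PDIA3 and -0.73 to 3.64 for IFI30. The class II median of MLL-AF9 minus other lines over measured members (2.72) was 4.14 with a pseudocount of 0.1. Leaving out each line gave 3 to 11 class II and 0 to 2 class I members past 4-fold, 764 to 1334 genes higher and 264 to 831 lower over all measured genes, and medians of 1.85 to 3.78 for class II and 0.31 to 0.57 for class I. Over all genes the 4-fold counts were 564 and 287, against 1090 and 630 with no filter, 308 and 181 at 5 RPKM, 957 and 536 at 2-fold, 181 and 43 on RPKM + 1, and 142 lower with the KG1a share taken off HL60. At 2-fold, 1 class I member was higher in both MLL-AF9 lines, 3 were higher in MonoMac-1 than in each other line, and 10 class II members were lower in KG1a. On RPKM + 1 the KG1a count was 2. For MonoMac-1 and KG1a against each other line, shares of all measured genes were not computed under these rules. For THP-1 minus MonoMac-1 the class II median over measured members (-2.91) was -3.32 with a pseudocount of 0.1 and -2.45 with no filter, and the class I median -0.067 and -0.018 under median-of-ratios scaling and quantile normalization. For KG1a minus HL60 the class II median over measured members (-0.46) was -1.22 with a pseudocount of 0.1. For the same lines the class I median (0.31) was 0.38 at 5 RPKM and 0.40 under quantile normalization. For all of these the cause was not tested beyond the smaller set of genes or lines that some settings leave. Low class II values rest on few fragments. The counts for MonoMac-1 and KG1a against each other line and the rule on RPKM + 1 were chosen after seeing the data.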

Other observations

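These HLA pseudogenes were chosen after their values were seen. HLA-DRB6, a pseudogene between HLA-DRB5 and HLA-DRB1, reached 2.08 RPKM in THP-1, 3.55 in MonoMac-1, 0.0265 in KG1a and 0.132 in HL60. HLA-DPB2, a pseudogene beside HLA-DPB1, stood at 0.0179 RPKM in THP-1, 0.671 in MonoMac-1, 0 (as listed) in KG1a and 0.0252 in HL60. HLA-H, a class I pseudogene, was present in all lines, at 12.7 RPKM in THP-1, 31.0 in MonoMac-1, 28.5 in KG1a and 24.8 in HL60, and like HLA-B and HLA-C it was lowest in THP-1. Shared reads with the parent genes were not tested.

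NFYC, a subunit of the NF-Y factor that binds the Y box, stood at 298 RPKM in THP-1, 18.4 in MonoMac-1, 15.6 in KG1a and 20.4 in HL60, a THP-1 level 14.6 times the next. NFYA and NFYB, its partner subunits, stood at 21.0 and 8.07 RPKM in THP-1, within the range of 5.90 to 21.0 over all lines. The deposited tables do not show whether the NFYC reads cover the whole gene.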
